A study of Mus musculus with 2 samples.

Results

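The 10 genes described here, *Osm*, *Lif*, *Osmr*, *Lifr*, *Jak1*, *Jak2*, *Stat3*, *Socs1*, *Socs3* and *Pim1*, belong to the JAK-STAT3 pathway and to 2 of the cytokine systems that feed it. They were chosen by name, with no measured value in the rule, but with earlier results of these data known. All 10 were among the 19465 mouse genes counted, and all 10 passed the filter on low counts. The samples were 2 cerebellar sections of formalin-fixed tissue, each from 1 untreated mouse that carried a breast cancer brain metastasis (BCBM) grown from HP organoids. HP organoids are mouse breast cancer organoids with activating mutations of both HER2 and PIK3CA, made from mammary tumors that Cre recombinase had started. The mice are described in the methods as C57BL/6J. The sample titles name the organoids HP-F1 for section 1 and HP-B6 for section 2, and all other labels of the sections are the same. The organoids were placed in the cerebellum of mice of 5 months by stereotactic injection, so earlier steps of metastasis are not modeled. There was no section without a tumor, and the reference is neural tissue of the same section.

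Oncostatin M (OSM) and leukemia inhibitory factor (LIF) are secreted cytokines of the interleukin-6 family. OSM binds the receptor chain encoded by *Osmr*, LIF binds the chain encoded by *Lifr*, and both chains pair with gp130, the product of *Il6st*. The paired receptors activate the kinases JAK1 and JAK2, which phosphorylate the transcription factor STAT3. STAT3 induces *Socs3*, whose product blocks the receptor complex, and *Pim1*, a kinase gene of cell survival, while *Socs1* is a related inhibitor best known as a target of interferon signaling. In brain, STAT3 is known for its part in the reaction of astrocytes to injury and in scar formation around a lesion. These are transcript counts, and no phosphorylation or protein was measured.

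STAT3 dimers bind a palindrome written TTCNNNGAA, which reads the same on both strands. It was searched in the 250 bases before each RefSeq start site, with 11 start sites for 9 of the 10 genes (GRCm38.p6, the patch release of mm10). The palindrome stood before 7.02% of all 32851 start sites of the table. Among the 11 sites of the member genes it stood once, 154 bases before the listed start site of *Socs3* (117969366). It is shown because it was the only match among the 11 sites. *Socs3* is on the minus strand and its span reaches 117970336, so this site and the match lie inside the span. Bases before the outer end of *Socs3* were not searched. The listed sites of *Lifr*, *Osmr*, *Stat3* and *Jak1* and site 2 of *Pim1* also lie inside their spans. For *Lifr* and *Osmr* the bases before the outer end were likewise not searched. The letters of the motif are in capitals, on the minus strand of chr11:117969502-117969530.
Socs3: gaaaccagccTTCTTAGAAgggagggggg
The stricter form TTCCNGGAA, held by 0.913% of all start sites, stood before none of the 11. These are matches of letters only.

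Visium spots, small regions that can hold several cells, were divided by their content of neural transcripts. Spots low in 26 neural genes formed the tumor body, and distance was counted in steps between neighboring spots. Most of these genes are neuronal or myelin genes, and the astrocyte gene *Aldoc* is among them. Tumor was 3 or more steps inside the border, the edge was the 2 steps on each side of it, and neural tissue was 3 or more steps outside. Section 1 held 669 tumor, 111 tumor-side edge, 118 neural-side edge and 2417 neural spots. Section 2 held 657, 236, 197 and 2858. Its tumor body was made of separate groups of 815 and 78 spots, and low-neural groups of 46 and 5 spots were left out. Steps outside were counted to the tumor body only, so neural spots beside the left-out groups may stand in far bins. The sections held 63986887 and 71878333 unique molecular identifiers (UMIs, counts of captured molecules). Median UMIs per spot were 56861 in tumor and 7663 in neural tissue of section 1, and 42238 and 9806.5 in section 2. The sections shared 3096 spot barcodes, none with the same counts in both.

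The tumors of the sections differed in their markers. Counts were scaled to library size and the trimmed mean of M values (TMM) and are given as CPM, relative to a fixed total of UMIs. Summed CPM of 11 epithelial genes were 14391 in the tumor of section 2 and 58.4 in that of section 1, where neural tissue held 29.8. Summed CPM of 10 fibroblast and matrix genes, including the collagen genes *Col1a1* and *Col3a1*, were 68642 in the tumor of section 1 and 3820.5 in that of section 2. The tumor body of section 1 was therefore rich in collagen transcripts and nearly without epithelial markers. The name tumor rests on low neural content alone, and the identity of this region was not checked against the histology. In each section the neuron sum was at least 6327 CPM in neural tissue and at most 141 CPM in tumor. All genes of that sum are among those that set the regions, so this difference follows from the split. Macrophage sums were 7163, 6667, 6728 and 1629 CPM from tumor through the tumor-side and neural-side edge to neural tissue in section 1, and 1479.8, 4047, 6299 and 1609.7 CPM in section 2.

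**Figure D1:**
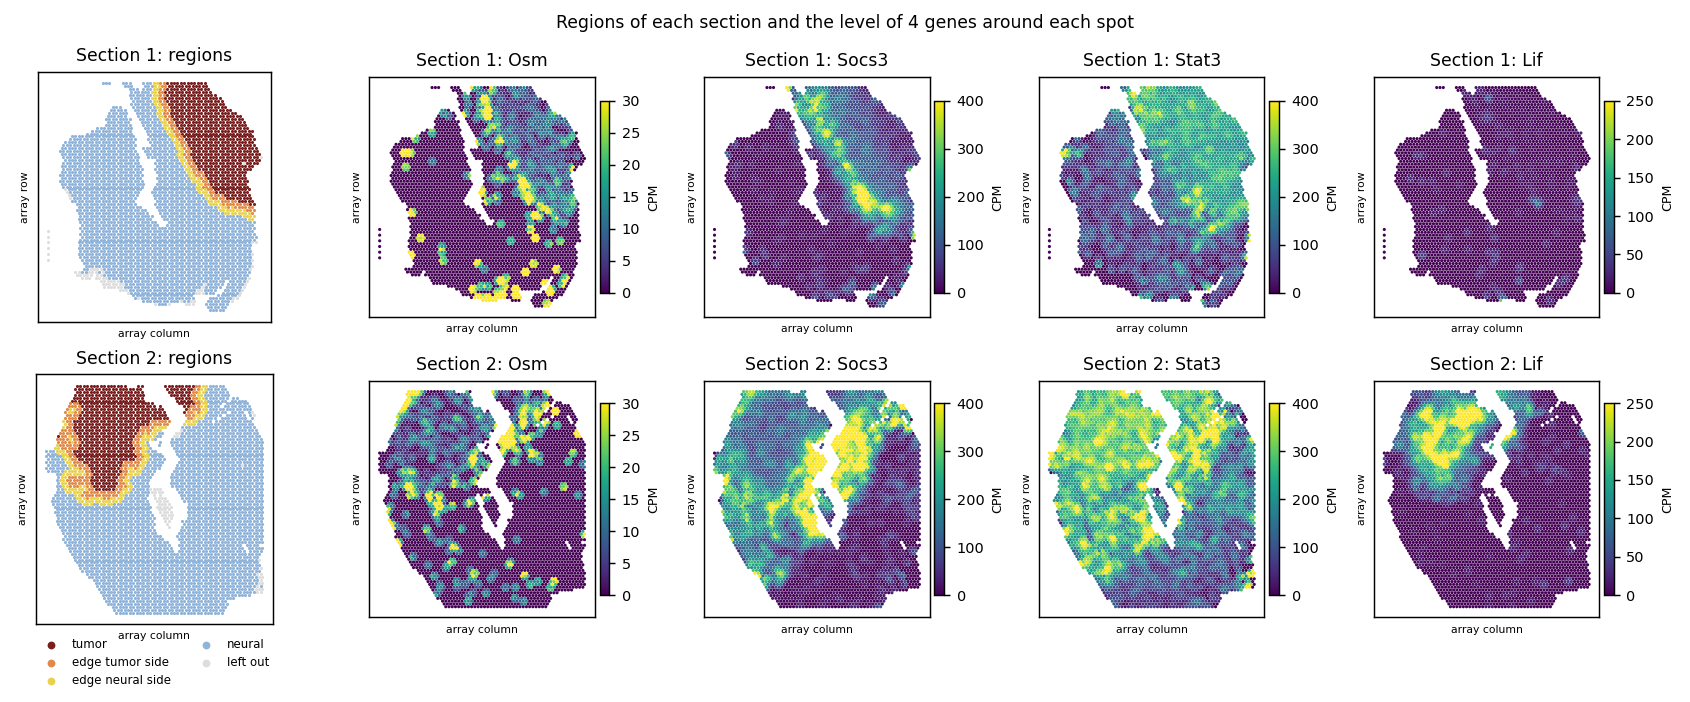
Maps of the spots of both sections by array row and column. The left panels show the regions, and the others show CPM of Osm, Socs3, Stat3 and Lif summed over a spot and its neighbors, with values above the top of each scale drawn at the top. Socs3 is high along the border in section 1 and over a wider belt in section 2, and Lif is high inside the tumor of section 2.

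Regions were compared with the UMIs summed by section and region into 8 libraries, by edgeR's quasi-likelihood test. Sections entered the model as blocks, and p-values were adjusted by Benjamini-Hochberg over all 19162 genes tested. This asks which transcripts differ between tumor, invading edge and neural tissue. In tumor against neural tissue 4 of the 10 genes rose (*Stat3*, *Osmr*, *Osm* and *Pim1*) and none fell. In that comparison 36.1% of all genes were called, 17.8% higher and 18.3% lower. In edge against neural tissue 5 of the 10 rose (*Osm*, *Socs3*, *Pim1*, *Osmr* and *Stat3*) and none fell, where 26.2% of all genes were called, 12.6% higher and 13.6% lower. The median log2 fold change of the 10 genes was 0.90 in tumor and 1.25 at the edge, against -0.14 and -0.06 over all genes. No member was called between tumor and edge, where 4.13% of all genes were (0.313% higher and 3.81% lower), or between the sides of the edge, where edgeR called 0 genes of any kind (0%) and 2279 had an unadjusted p below 0.05. Of the members, 3 had an unadjusted p below 0.05 between tumor and edge, as did 3757 of all 19162 genes, and 1 did between the sides. Without the section as a block, 0 members were called in tumor and 2, *Osm* and *Pim1*, at the edge. With library size as the only scaling, *Osm* and *Pim1* were not called in tumor.

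**Figure D2:**
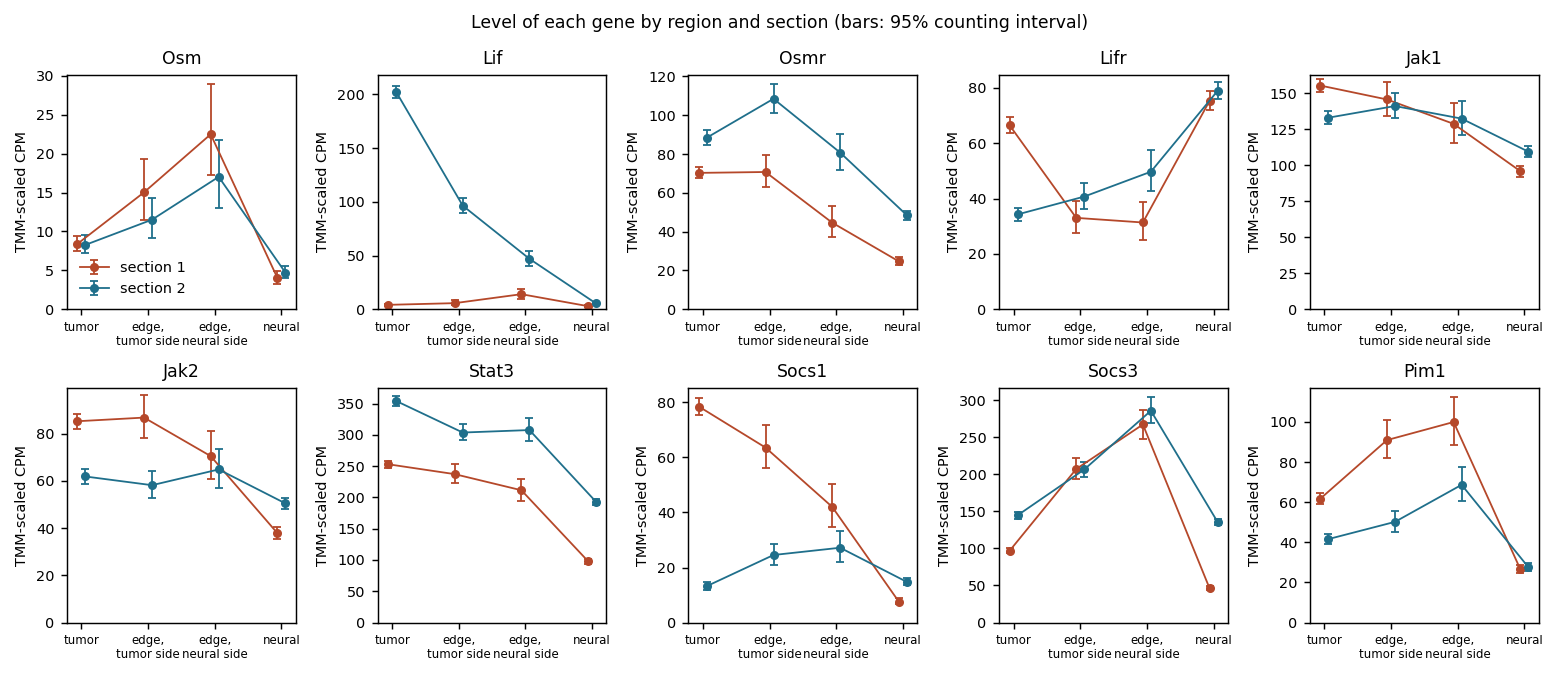
Level of each gene in TMM-scaled CPM (vertical axis, from 0) in 4 regions of section 1 (red) and section 2 (blue), with 95% Poisson intervals of the counts. With the border used here, Osm, Socs3 and Pim1 are highest on the neural side of the edge in both sections. Lif and Socs1 separate the sections, and Lifr is highest in neural tissue.

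**Figure D3:**
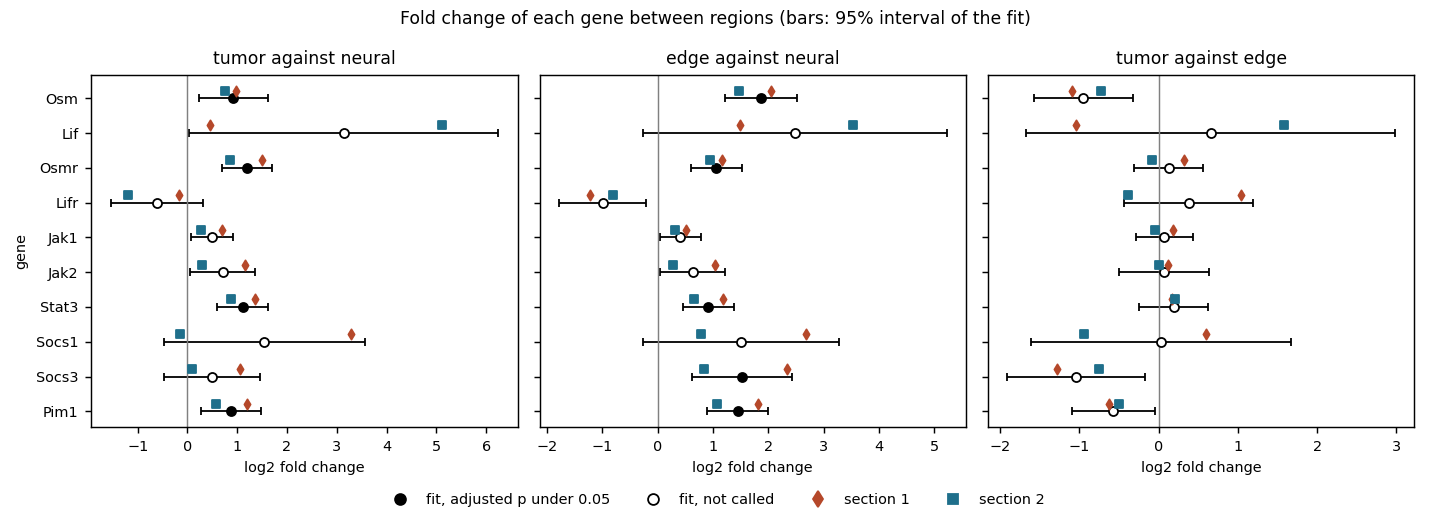
Log2 fold change of each gene between regions (horizontal axis). Circles are the edgeR estimate with its 95% interval, filled where the adjusted p is below 0.05, and diamonds and squares give sections 1 and 2 alone. Osm, Osmr, Stat3 and Pim1 are filled in both comparisons with neural tissue and Socs3 at the edge alone.

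*Osm*, the ligand made mainly by myeloid cells, lies on chromosome 11 (4236785 to 4241026). It gave 8.40 CPM in tumor, 15.0 on the tumor side of the edge, 22.5 on the neural side and 4.04 in neural tissue of section 1, from 283, 61, 61 and 102 UMIs. In section 2 it gave 8.28, 11.5, 17.0 and 4.72 CPM, from 200, 84, 62 and 157 UMIs. Both sections had the same order, with the neural side of the edge highest, and every edge and tumor library was above both neural libraries. Which side of the edge was higher turned with another border threshold, so the place of the top depends on where the border is drawn. At the edge *Osm* was 3.65-fold above neural tissue (log2 fold change 1.87 ± 0.27 SE, adjusted p = 0.00603, edgeR). In tumor it was 1.89-fold above (0.92 ± 0.28, adjusted p = 0.0488). The neighboring levels within tumor and edge did not pass the test, with a log2 fold change of -0.95 for tumor against edge (95% interval -1.57 to -0.32, adjusted p = 0.124). The call in tumor is close to the threshold and is lost when the edge is 1 step wide (0.75, adjusted p = 0.085) or the minimum of UMIs per spot is doubled (0.92, adjusted p = 0.0508).

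By distance, *Osm* peaked on the first 2 steps outside the border in both sections. In section 1 it was 27.4 and 25.1 CPM there (35 and 26 UMIs), 17.3 on the first step inside, 7.17 at 6 or more steps inside and 3.47 at 13 or more steps outside. In section 2 it was 16.2 and 16.7 CPM (38 and 24 UMIs), 15.1 on the first step inside, 7.74 deep inside and 2.72 far outside. The peak was 7.89 times the far neural level in section 1 and 6.14 times in section 2. Summed CPM of 10 neutrophil genes were 126 and 105 on the first step outside and 28.1 and 32.1 at 13 or more steps, with the highest value in section 2 at 5 steps outside (147). The neutrophil list includes *Csf3r*, also among the receptor chains of the pathway counted below, which gave 77.0 CPM of that 147. Ranking by neutrophil sum was thus partly by another gene of the pathway. Macrophage sums were 7691 and 6042 CPM on the first step outside against 489.5 and 983 at 13 or more. Within the neural side of the edge, *Osm* in the 3 equal groups of spots ranked by macrophage sum was 1.22 and 1.11 times as high in the highest group as in the lowest, and 1.49 and 1.57 times when ranked by neutrophil sum. These groups held 15 to 24 *Osm* UMIs each, and the part of either cell type in the profile was not tested.

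*Lif*, the gene of leukemia inhibitory factor, lies close to *Osm* on chromosome 11 (4257568 to 4272514). In section 2 it gave 202 CPM in tumor, 96.4 and 47.0 on the tumor and neural sides of the edge and 5.36 in neural tissue. In section 1 it gave 4.10, 5.67, 14.0 and 2.85 CPM, from 138, 23, 38 and 72 UMIs. *Lif* was thus high in the tumor with epithelial markers and near its neural level in the collagen-rich one. The log2 difference between tumor and neural tissue was 5.12 in section 2 and 0.46 in section 1, and the joint fit did not call it (3.14, 95% interval 0.03 to 6.24, adjusted p = 0.104). With 1 section of each kind, the organoid line, the mouse and the makeup of the tumor cannot be told apart.

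In section 2 *Lif* was lower in each bin from the deep tumor to 4 steps outside, with 190.7 CPM at 6 or more steps inside, 131 at 3, 68.2 at 1, 54.1 and 30.7 on the first 2 steps outside, and 2.499 at 13 or more. Epithelial sums ran alongside, 12646, 11868, 6902, 4709, 2811 and 158 CPM in the same bins. Within the neural side of the edge of section 2, spots highest in epithelial genes held 4.93 times the *Lif* of the lowest, and on the tumor side 1.96 times. On each of these sides the epithelial ratio was the highest of any cell type list. In the tumor of section 2 the ratio was 1.10, and the highest of any list was 1.33. The part of epithelial cells in the *Lif* level was not tested. Section 1 had a profile of another shape, 3.68 CPM deep inside, 17.2 and 15.4 on the first 2 steps outside and 2.69 far outside, and its peak lay on the same steps as that of *Osm*.

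*Osmr*, the receptor chain for OSM, lies on chromosome 15 (6813568 to 6874968). It gave 70.3 CPM in tumor, 70.7 and 44.6 on the tumor and neural sides of the edge and 24.7 in neural tissue of section 1, and 88.4, 108, 80.7 and 48.5 CPM in section 2. Within each section, every tumor and edge library was above the neural one, but the neural side of section 1 was below the neural library of section 2. *Osmr* was 2.28-fold above neural tissue in tumor (log2 fold change 1.19 ± 0.21, adjusted p = 0.0072, edgeR) and 2.09-fold at the edge (1.06 ± 0.19, adjusted p = 0.0107). Across the border it did not peak where its ligand did. On the first step outside it was 46.9 and 81.8 CPM, and it reached its highest level of the profile at 6 to 8 steps outside, 83.4 CPM in section 1 and 106 in section 2, before 14.7 and 33.8 at 13 or more steps. Astrocyte sums were 9537 and 9619 CPM at 6 to 8 steps, against 3230 and 5397 on the first step outside and 5453 and 7900 at 13 or more steps, where *Osmr* was lowest. In section 2 the astrocyte sum was highest at 9 to 12 steps (11126 CPM), where *Osmr* was 88.3 CPM. The astrocyte list includes *Aldoc*, one of the genes that set the regions, so its sums near the border are partly tied to the split. The list also includes *Gfap*, which is among the STAT3 targets named below. In section 1 *Gfap* gave 4933 CPM of the sum at 6 to 8 steps and 474 at 13 or more. In section 2 it gave 7662 CPM at 9 to 12 steps, 2.17 times its level at 13 or more. The rise of both sums over the far level thus came from *Gfap*, not from the other listed genes together. The part of astrocytes in the *Osmr* level was not tested.

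*Lifr*, the receptor chain for LIF, lies on the same chromosome (7090610 to 7197489). It gave 66.5 CPM in tumor, 33.0 and 31.4 at the tumor and neural sides of the edge and 75.3 in neural tissue of section 1, and 34.3, 40.7, 49.7 and 78.9 CPM in section 2. Neural tissue was highest in both sections, and the order of the other regions differed between them. No comparison passed the edgeR test, and the difference nearest to it was edge against neural, with a log2 fold change of -0.99 (95% interval -1.78 to -0.20, adjusted p = 0.0727). Against neural tissue at 13 or more steps alone, a reference chosen after the profile had been seen, it fell by 1.18 (adjusted p = 0.0408). *Lifr* was 104 and 88.7 CPM at 13 or more steps outside and 28.8 and 37.7 CPM at 2 steps inside. At 6 or more steps inside it was 70.4 CPM in section 1 and 30.0 in section 2. The lowest bin of section 2 was at 5 steps inside (25.4 CPM). In far neural tissue, spots highest in 7 myelin and oligodendrocyte genes held 1.45 and 1.92 times the *Lifr* of the lowest. In each section this was the highest ratio of any cell type list there. The part of these cells in the *Lifr* level was not tested.

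*Jak1* (chromosome 4, 101151974 to 101265282) gave 155, 146, 129 and 95.9 CPM from tumor through both sides of the edge to neural tissue in section 1, and 133, 141, 132 and 109 CPM in section 2. *Jak2* (chromosome 19, 29251803 to 29313095) gave 85.2, 86.8, 70.5 and 37.9 CPM in section 1, and 61.8, 58.1, 64.8 and 50.5 CPM in section 2. Neural tissue was lowest in each section for both genes. The log2 fold change in tumor was 0.49 for *Jak1* (95% interval 0.07 to 0.91, adjusted p = 0.0719) and 0.71 for *Jak2* (0.05 to 1.37, adjusted p = 0.0879), neither past the threshold. Over the 28 distance bins, 14 in each section, the highest *Jak1* level was 1.47 times the lowest in section 1 and 1.43 times in section 2, and for *Jak2* these ratios were 2.35 and 1.36.

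*Stat3*, the transcription factor of the pathway (chromosome 11, 100886806 to 100939594), was higher in section 2 than in section 1 in every region. It gave 253, 237, 211 and 98.0 CPM from tumor to neural tissue in section 1, and 354, 304, 308 and 193 CPM in section 2. Every tumor and edge library was above both neural libraries. In tumor *Stat3* was 2.16-fold above neural tissue (log2 fold change 1.11 ± 0.21, adjusted p = 0.00972, edgeR), and at the edge 1.89-fold (0.92 ± 0.19, adjusted p = 0.0174). Tumor and edge did not differ past the threshold (0.19, 95% interval -0.24 to 0.63, adjusted p = 0.594).

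Stepwise, in CPM without TMM factors, *Stat3* was nearly level from the deep tumor across the border into neural tissue. From 6 or more steps inside to 6 to 8 steps outside it stayed between 208 and 257 CPM in section 1, and between 253 and 319 CPM in section 2. At 9 to 12 steps outside it was 114 CPM in section 1 and 292 in section 2, and at 13 or more steps 75.5 and 165. On this scale the drop thus lay far from the tumor, at a distance that differed between the sections. The comparison above is TMM-scaled. With TMM scaling, neural tissue at 3 to 12 steps gave 169 and 273 CPM, below the tumor and edge levels of the same section. At 13 or more steps it gave 66.2 and 166 CPM. The lower neural level of that comparison was therefore not of far spots alone. Because a spot of the tumor held more UMIs, *Stat3* UMIs per spot were 12.7 and 13.02 in tumor against 1.02 and 2.24 in neural tissue, and more cells and more RNA per cell cannot be told apart in these sums.

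*Socs3*, the feedback inhibitor of gp130 receptors (chromosome 11, 117966079 to 117970336), gave 96.7 CPM in tumor, 207 and 267 on the tumor and neural sides of the edge and 46.3 in neural tissue of section 1. In section 2 it gave 145, 206, 286 and 136 CPM. The edge libraries were above all tumor and neural ones, and the neural side was highest in both sections. The order of the sides turned with another border threshold. At the edge *Socs3* was 2.88-fold above neural tissue (log2 fold change 1.53 ± 0.37, adjusted p = 0.0307, edgeR), by 2.33 in section 1 and 0.84 in section 2. Tumor against neural tissue was not called (0.49, adjusted p = 0.351), and tumor against edge was -1.04 (95% interval -1.91 to -0.17, adjusted p = 0.197).

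The profile of *Socs3* was the steepest of the 10 genes outside the tumor of section 1. It went from 80.5 CPM at 6 or more steps inside to 232 on the last step inside, 314 and 310 on the first 2 steps outside, 143 at 6 to 8 steps, 27.5 at 9 to 12 and 8.85 at 13 or more, 35.5 times from the top to the far end. In section 2 it went the same way over these steps, 121 deep inside, 215 on the last step inside and 257 and 305 on the first 2 steps outside, but then stayed between 268 and 328 CPM out to 9 to 12 steps and was 81.0 CPM at 13 or more. Counted in steps from the tumor body, its belt was therefore wider in section 2, as was that of *Stat3*. The low-neural groups left out in section 2 were not counted as tumor body. Astrocyte marker sums reached their highest level at 6 to 8 steps in section 1 (9537 CPM) and at 9 to 12 steps in section 2 (11126 CPM). In neural tissue at 13 or more steps, spots highest in astrocyte genes held 2.54 and 7.99 times the *Socs3* of the lowest. Those highest in macrophage genes held 1.62 and 8.26 times. The highest ratios of any cell type list there were the 2.54 in section 1 and the 8.26 in section 2. On either side of the edge no such ratio for any of 12 cell type lists was above 1.56 or below 0.69. As given for *Osmr*, the rise of the astrocyte sums over the far level came from *Gfap*, also among the STAT3 targets named below. The astrocyte ranking was thus partly by another gene of the pathway. The part of either cell type was not tested.

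**Figure D4:**
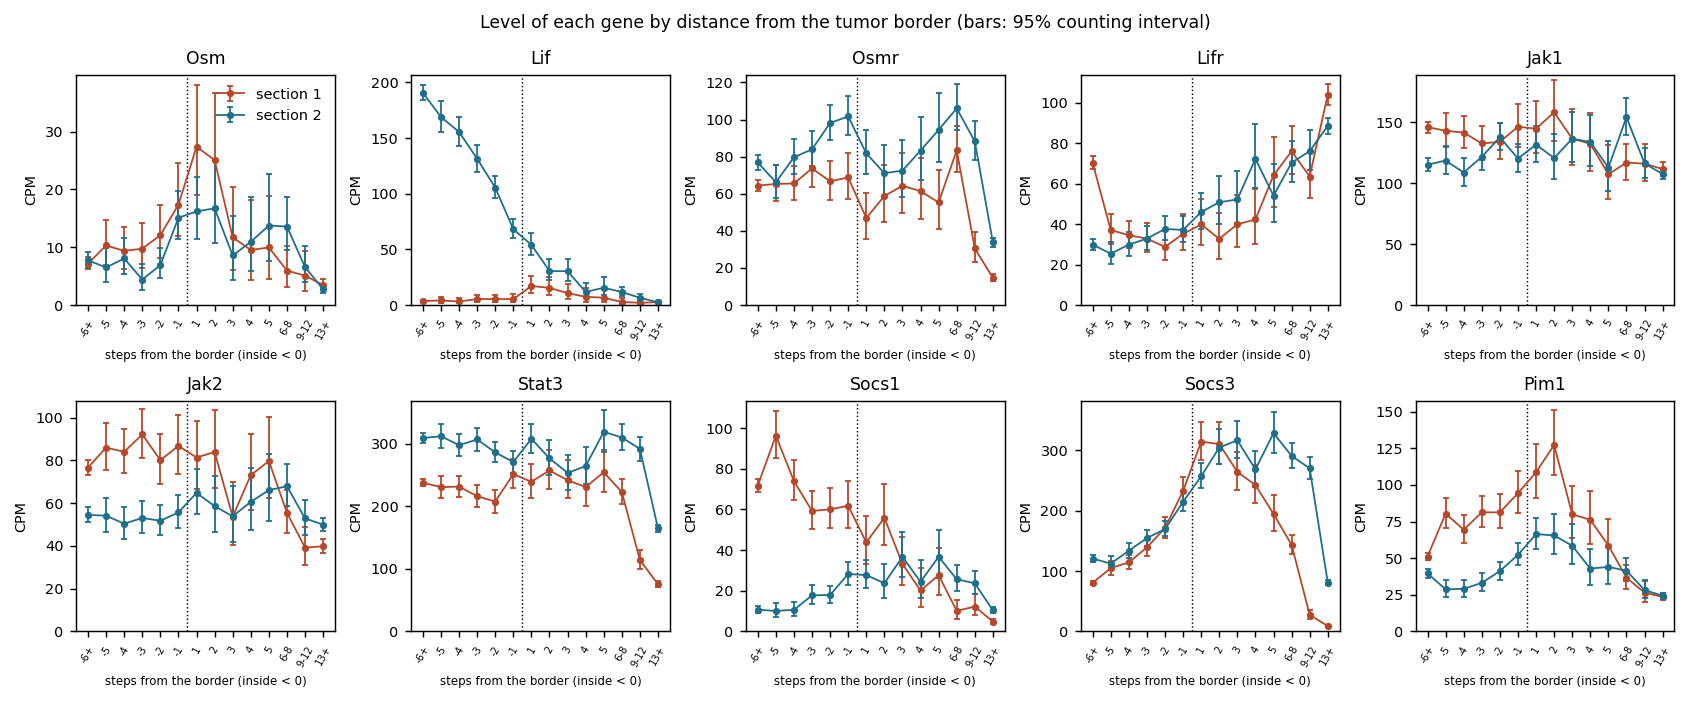
CPM of each gene (vertical axis, from 0) in bins of distance from the tumor border, in steps between neighboring spots, for section 1 (red) and section 2 (blue), with 95% Poisson intervals. The dotted line is the border used here, with the tumor to its left, and another threshold would move it. Levels are CPM without TMM factors. Osm, Socs3 and Pim1 are highest at or just outside the border in section 1, and Socs3 and Stat3 stay high further out in section 2. Osmr has its top at 6 to 8 steps outside on this scale, a place that depends on the scaling.

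*Socs1*, the inhibitor best known from interferon signaling (chromosome 16, 10783808 to 10785536), separated the sections. It gave 78.5, 63.6, 42.1 and 7.61 CPM from tumor to neural tissue in section 1, and 13.2, 24.5, 27.2 and 14.8 CPM in section 2. Section 1 was highest in tumor, whereas in section 2 the tumor was the lowest library. The log2 difference between tumor and neural tissue was 3.28 and -0.15 in the sections, and the joint fit gave 1.55 (95% interval -0.47 to 3.56, adjusted p = 0.187). T cell marker sums were 348 CPM in the tumor of section 1 and 14.6 in that of section 2. Macrophage sums were 7163 and 1479.8 CPM in the same tumors and monocyte sums 355 and 88.3. Epithelial sums ran the other way, 58.4 and 14391 CPM. The part of any cell type in the *Socs1* level was not tested.

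*Pim1*, the kinase gene induced by STAT factors (chromosome 17, 29490785 to 29496111), gave 61.7, 91.0, 100.0 and 26.6 CPM from tumor to neural tissue in section 1, and 41.6, 50.2, 68.7 and 27.6 CPM in section 2. The order of regions was that of *Osm*, with the neural side of the edge highest and neural tissue lowest in both sections. As for *Osm*, the order of the sides of the edge turned with another border threshold. *Pim1* was 2.72-fold above neural tissue at the edge (log2 fold change 1.44 ± 0.23, adjusted p = 0.00775, edgeR) and 1.84-fold in tumor (0.88 ± 0.24, adjusted p = 0.036). Its levels peaked on the first 2 steps outside, 109 and 127 CPM in section 1 and 66.5 and 65.5 in section 2, and were 23.6 and 24.4 CPM at 13 or more steps. In the tumor of section 2, spots highest in neutrophil genes held 2.25 times the *Pim1* and 2.01 times the *Osm* of the lowest. For both genes these were the highest ratios of any cell type list in that tumor. In the tumor of section 1 the neutrophil ratios were 0.963 and 0.859. The part of neutrophils in either level was not tested.

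Near and far neural tissue were then compared, a comparison added after the profiles had been seen. Neural spots at 3 to 12 steps (580 and 732 spots) and at 13 or more steps (1837 and 2126 spots) were summed apart in a fit of 5 regions. *Osmr* alone of the 10 genes was called, where 1.5% of all 18862 genes tested were called with 1.07% higher and 0.424% lower. In the near spots *Osmr* gave 50.01 and 85.7 CPM, in the far spots 12.8 and 34.0 CPM, both near values above both far ones, and it rose 3.05-fold (log2 fold change 1.61 ± 0.26, adjusted p = 0.0441, edgeR). That call is lost with an edge of 3 steps, with neural tissue from 6 steps on, with another border threshold and without the section as a block. *Socs3* was 125 and 271 CPM near and 7.76 and 81.4 far, with all near values above all far ones, but the sections differed in size (log2 differences 3.93 and 1.73) and it was not called (2.40, adjusted p = 0.176). *Stat3* was 169 and 273 CPM near and 66.2 and 166 far (log2 differences 1.35 and 0.72, adjusted p = 0.102), and *Osm* was 6.37 and 9.64 CPM near and 3.04 and 2.74 far (1.48, adjusted p = 0.0751). With DESeq2 all 3 of these passed the threshold.

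Other genes of the pathway were taken from 5 lists, with 62 genes in all, each tested. These lists too were chosen with earlier results of these data known. In tumor against neural tissue 21 of the 62 rose and 2 fell, and at the edge 24 rose and 1 fell. Of all genes, 17.8% were called higher and 18.3% lower in tumor, and 12.6% and 13.6% at the edge. The median log2 fold change of the 62 was 0.83 in tumor and 0.79 at the edge, against -0.14 and -0.06 over all genes. In near against far neural tissue 6 of the 62 rose and none fell, where 1.07% of all genes were called higher. Among 8 other ligands of the gp130 family, 2 rose in tumor and 3 at the edge. *Clcf1*, a ligand of the CNTF receptor, gave 17.5 and 25.8 CPM on the sides of the edge against 5.27 in neural tissue of section 1, and 22.4 and 26.4 against 5.93 CPM in section 2 (log2 fold change 2.02, adjusted p = 0.0051). *Il6*, the founding ligand of the family, was 6.66 and 9.22 CPM on the sides of the edge in section 1, 5.49 and 7.42 CPM in section 2 and 2.02 to 2.65 CPM in tumor and neural tissue, from 25 to 88 UMIs a library. It rose by 1.47 at the edge against neural tissue (adjusted p = 0.0107) and fell in tumor against the edge (-1.70, adjusted p = 0.0255).

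Of 12 other receptor chains, *Il10rb* rose and *Cntfr*, the CNTF receptor of neurons, fell in both comparisons. *Cntfr* was 39.9, 56.2, 97.8 and 224 CPM from tumor to neural tissue in section 1 and 41.6, 60.6, 85.4 and 213 CPM in section 2, with a log2 fold change of -2.42 in tumor (adjusted p = 0.000542, edgeR) and -1.58 at the edge (adjusted p = 0.00222). *Il6st*, the gp130 chain shared by OSM and LIF receptors, was 167, 155, 108 and 74.6 CPM in section 1 and 74.1, 94.9, 97.5 and 87.9 CPM in section 2 and was not called. Among 8 other kinases and STATs 4 rose in each comparison, *Tyk2*, *Jak3*, *Stat5a* and *Stat6*. The largest of these differences was that of *Stat6*, the STAT of interleukin-4 signaling, at 2.62 in tumor (adjusted p = 0.000943). Of 12 other inhibitors and phosphatases 5 rose in each comparison, *Socs4*, *Socs6*, *Ptpn1*, *Ptpn2* and *Ptpn6*, with log2 fold changes of 0.54 to 2.09.

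Among 22 genes known as STAT3 targets, 9 rose and 1 fell in tumor, and 11 rose at the edge, where 17.8% and 12.6% of all genes were called higher. *Bcl3*, *Cebpb*, *Junb*, *Myc*, *Mcl1*, *Ccnd1*, *Birc5*, *Icam1* and *Il4ra* rose in both comparisons, and *Cebpd* and *Timp1* at the edge. Several of these, such as the cell cycle genes *Ccnd1* and *Birc5*, have many other inducers. *Timp1*, an inhibitor of matrix proteases, was 459 and 461 CPM on the sides of the edge of section 1 against 215 in tumor and 64.5 in neural tissue, and 165 and 240 CPM against 55.8 and 51.8 in section 2 (edge against neural 2.33, adjusted p = 0.00924). *Serpina3n*, a protease inhibitor of reactive astrocytes, fell in tumor against neural tissue (-2.21, adjusted p = 0.00315) and against the edge (-2.09, adjusted p = 0.0165).

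Some targets that did not pass the test of regions had their highest levels well outside the border. *Lcn2* and *Gfap* are given here and were picked after their values were seen. Other such targets had their highest bin elsewhere, among them deep in the tumor of 1 section or on the first step outside. *Lcn2*, which encodes lipocalin 2, was 784 CPM on the first step outside in section 1, 2319 at 5 steps, 101 at 9 to 12 and 6.44 at 13 or more, and in section 2 it was 1566, 3094, 1982 and 193 CPM in the same bins. *Gfap*, the intermediate filament gene of astrocytes, was highest at 6 to 8 steps in section 1 (4933 CPM) and at 9 to 12 steps in section 2 (7662 CPM). In both sections the tops of *Lcn2* and *Gfap* lay further out than those of *Osm* and *Pim1*.

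Likeness of profile was measured as Pearson's r of log2(CPM + 1) over the 28 bins, each section centered on its own mean, as a description with no test, since bins of a section share a mouse and a library. *Socs3* was most like *Sbno2* (r = 0.978), *Nek6* and *Ndst1*. *Osm* was most like *Cd274* (0.877), *S100a8* (0.876) and its fellow member *Pim1* (0.869), and *Pim1* was most like *Clec4d* (0.958), a receptor of myeloid cells. *Stat3* was most like *Bcl3* (0.944), *Irf9* and *Lgals9*, and *Socs1* most like the interferon-induced genes *Gbp9* (0.961) and *Gbp4* and the MHC class I regulator *Nlrc5*. *Lif* was most like *Phlda1* (0.967), *Prkx* and the epithelial gene *Epcam* (0.955). *Lifr* was most like *Lrig1* (0.926), *Osmr* most like *Scamp2* (0.909), *Jak2* most like *Il2rg* (0.880) and *Jak1* most like *Ifi206*, at a lower r of 0.759. Among pairs of members, *Stat3* and *Osmr* had the highest r (0.881), *Osm* and *Osmr* had 0.509, and *Lif* and *Lifr* had the lowest (-0.782).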

How the data were processed

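Per the labels, Space Ranger 2.1.1 and build mm10 were used. The authors deposited raw counts, one whole number of UMIs for each gene in each spot, with no normalization. Counts come from probes, so levels were not compared between genes. Spots with at least 500 UMIs and 10 genes were kept, and 91 and 69 spots stayed outside all regions. Each spot was pooled with its up to 6 neighbors, and Otsu's threshold on the share of neural transcripts (0.497% and 0.493%) split the spots. Low-neural groups of at least 50 spots formed the tumor body. The 8 summed libraries held 2316547 to 36256977 UMIs, with TMM factors of 0.869 to 1.19. Levels by distance are CPM without TMM factors. Intervals on levels are 95% Poisson intervals and cover counting error only.

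Fits used edgeR 4.0.16 in R 4.3.3 (filterByExpr by region, robust glmQLFit, glmQLFTest), with 3 residual degrees of freedom, and calls at an adjusted p under 0.05. The regions of each section share 1 mouse, which pairs the libraries, and deviations of same-section libraries correlated at r of 0.351 to 0.835. The test was tried first on simulated data, with the same changes in both sections and a smaller spread than here (common dispersion 0.0829). That trial therefore cannot show how well the test works on these sections. The genes, lists and comparisons were chosen with earlier results of these data known. Named were the 10 members, genes of the lists called in the same direction in both sections, and genes most alike in profile. *Lcn2*, *Gfap*, *Il6st* and *Csf3r* were picked after their values were seen. Some genes of the lists are counted but not reported here by name. Alternatives were DESeq2 1.42.0, RLE factors, library size alone, no filter, no block, each section alone, other thresholds, edge widths, neural regions and minimums, and regions from the profiles of the study's clusters. Start sites and positions came from RefSeq tables of GRCm38.p6, matched by symbol for all 10 genes, with start sites for 9.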

Additional observations from a re-analysis of the deposited data

How the results depend on the processing

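With 2 mice and 1 section each, p-values rest on very few samples, and the tumors differ in makeup. Without the replicate block, the members called were 0 in tumor against neural tissue (4110 genes of all, against 6920), 2 in edge against neural (3010 against 5021) and 0 in near against far neural tissue. With library size only, 2 members and 7756 genes of all were called in tumor against neural tissue. With DESeq2, 1 member was called in tumor against edge, *Osm* (-0.88, adjusted p = 0.032), and 4 in near against far neural tissue. Near against far neural tissue had 0 members called with the threshold at a fixed share of the median, with an edge of 3 steps and with neural tissue from 6 steps, and 2 with an edge of 1 step. DESeq2 also called *Lif* in tumor and at the edge, *Jak1* in tumor and *Lifr* at the edge. Other settings gained calls as well, counted over 50 member results for each setting. Newly called were 1 with library size only, 2 with the median threshold and 1 each with an edge of 1 step and of 3 steps.

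Over all genes, DESeq2 called 2203 and the median threshold 2781 in tumor against edge (edgeR 791), DESeq2 called 435 between the sides of the edge (edgeR 0), and near against far neural tissue (282) gave 1906 with DESeq2, 429 with library size only, 989 with an edge of 1 step and 0 with the median threshold, an edge of 3 steps, neural tissue from 6 steps or no block.

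Directions turned only among differences that were not called. In tumor against edge, library size only gave *Jak1* -0.078, *Jak2* -0.083, *Socs1* -0.13 and *Osmr* -0.023, and cluster profiles gave *Jak2* -0.0027 and *Socs1* -0.086. Between the sides of the edge, neural minus tumor, *Lif* was -0.011 with RLE factors, -0.74 without the block, -0.70 with the median threshold and -0.29 with an edge of 3 steps. There library size only gave *Stat3* 0.11, *Jak1* 0.043 and *Jak2* 0.10, the median threshold gave *Socs3* -0.15, *Osm* -0.84 and *Pim1* -0.61, and cluster profiles gave *Lifr* -0.13. In near against far neural tissue the median threshold gave *Lif* -0.070. The causes were not tested. Against neural tissue at 13 or more steps, chosen after seeing the data, *Socs3* at the edge was 2.85 with an adjusted p of 0.0521 (edgeR). Each section alone gave values with no test.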
